A study of Mus musculus with 3 samples.

Results

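The RNA-binding proteins that choose exons were examined here as 1 set of genes: the SR proteins (symbols beginning with Srsf and a number), the hnRNP proteins (Hnrnp), Tra2a and Tra2b, and the Ptbp, Elavl, Rbfox, Celf, Nova and Mbnl families. Genes were taken by symbol from the deposited count table, pseudogene entries excluded. The rule found 53 of the 22976 genes listed: 11 SR, 20 hnRNP, 6 Celf, 4 Elavl, 3 Mbnl, 3 Ptbp, 2 Nova, 2 Rbfox and 2 Tra2 genes. Of these, 12 were treated as neuronal regulators (Elavl2, Elavl3, Elavl4, Rbfox1, Rbfox2, Nova1, Nova2, Ptbp2, Celf3, Celf4, Celf5 and Celf6) and the other 41 as ubiquitous. The neuronal class was set by symbol and includes Rbfox2, which is broadly expressed, and the ubiquitous class is the remainder. Rbfox3 was not analysed here.

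All libraries came from NSC-34, a mouse line made by fusing neuroblastoma cells with spinal cord cells enriched for motor neurons. The control was 1 library of untreated wild-type NSC-34. The other 2 libraries, clone 1 and clone 2, were wild-type NSC-34 clones that became resistant by themselves to PR20, a synthetic proline-arginine dipeptide repeat of the kind made from expanded C9ORF72 repeats, and are labelled with 10 µM PR20 for 3 weeks. The labels do not say whether PR20 was present at harvest, so resistance, exposure and clonal selection cannot be told apart. Each clone is 1 line and 1 library, the control has no replicate, and the labels leave unstated whether the clones were grown apart. The p-values below therefore take their spread from the 2 clones alone and assume that the control varies alike. Poly(A) RNA was sequenced, and 11700755 reads were counted to genes in the control, 11389663 in clone 1 and 11307034 in clone 2. Levels are CPM, a gene's reads scaled to a common library total and corrected by edgeR's TMM factors. A gene was called when its adjusted p from edgeR's quasi-likelihood test (Benjamini-Hochberg over all 13705 genes tested) was under 0.05.

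SR proteins bind enhancer sequences in exons and generally favour their inclusion, while many hnRNP proteins bind silencers and oppose it. Neurons add their own regulators: the neuronal Elavl (Hu) proteins bind AU- and U-rich RNA and also act on mRNA stability, Nova, Rbfox and the neuronal Celf proteins set exons of synaptic and cytoskeletal genes, and Ptbp2 takes over from Ptbp1, which holds neuronal exons back in other cells. Several of these proteins also control the splicing of their own mRNA and that of their paralogues, which a count per gene does not show.

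The promoters of 4 neuronal members are shown because these genes span what was measured: Elavl3 and Celf6 fell far, Nova2 was not called and Ptbp2 was slightly higher. Each is the 250 bases before a RefSeq transcription start (build GRCm38.p6), 5′ to 3′ on the gene's strand, with CG dinucleotides in capitals. The starts used for Celf6 and Ptbp2 lie 420 and 1078 bases inside the annotated gene, and those of Elavl3 and Nova2 at its start.
Elavl3, chr9:22052024-22052273, minus strand: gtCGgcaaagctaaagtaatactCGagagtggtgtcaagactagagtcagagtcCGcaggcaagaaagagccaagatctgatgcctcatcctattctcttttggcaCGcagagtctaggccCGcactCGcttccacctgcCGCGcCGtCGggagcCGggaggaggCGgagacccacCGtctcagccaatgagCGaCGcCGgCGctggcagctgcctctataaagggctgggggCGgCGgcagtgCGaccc
Celf6, chr9:59578087-59578336, plus strand: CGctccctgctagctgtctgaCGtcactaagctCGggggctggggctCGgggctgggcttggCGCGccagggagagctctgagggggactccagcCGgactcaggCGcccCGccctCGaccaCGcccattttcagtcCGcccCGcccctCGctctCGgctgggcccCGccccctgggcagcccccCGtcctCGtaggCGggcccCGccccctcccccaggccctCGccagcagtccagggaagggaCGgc
Nova2, chr7:18925638-18925887, plus strand: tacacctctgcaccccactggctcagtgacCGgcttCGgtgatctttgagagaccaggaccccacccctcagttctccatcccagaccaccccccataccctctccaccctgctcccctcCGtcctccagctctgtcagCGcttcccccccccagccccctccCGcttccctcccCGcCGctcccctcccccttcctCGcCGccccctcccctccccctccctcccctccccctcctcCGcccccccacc
Ptbp2, chr3:119783389-119783638, minus strand: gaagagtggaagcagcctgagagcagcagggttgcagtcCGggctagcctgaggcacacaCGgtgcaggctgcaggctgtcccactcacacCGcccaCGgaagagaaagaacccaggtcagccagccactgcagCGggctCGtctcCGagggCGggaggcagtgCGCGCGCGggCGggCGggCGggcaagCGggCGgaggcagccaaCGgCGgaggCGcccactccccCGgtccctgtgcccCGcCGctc
These stretches held 20, 22, 10 and 23 CG dinucleotides. Whether CG content goes with the changes was not tested. Over windows of 300 bases (250 before and 50 after the start), 48 of the 53 members had an entry, with a median of 26 CG dinucleotides against 7 over all 32851 promoters of the table. For each member only the listed start nearest the annotated gene start was used, which for Celf2 lay 113365 bases away. The ubiquitous members had a median of 27.5 and the neuronal ones 20, from 3 at Rbfox1 to 36 at Ptbp2. The 6 neuronal members with an entry that fell had a median of 23, from 4 at Celf3 to 31 at Celf6. The other 4 had a median of 15.5. The letters TATAAA, searched on both strands, were found in the windows of Elavl3 and Celf3 among the 10 neuronal members and in 13.6% of all promoters. CCAAT was found in the same pair of neuronal windows, in 21 of 38 ubiquitous windows and in 37.4% of all promoters.

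The neuronal Celf and Elavl genes fell by most of their level in both clones, while Nova1 and Nova2 were not called and Ptbp2 was slightly higher. Of the 11 neuronal members tested, 8 fell, 1 rose and 2 were not called, beside 25.8% of all tested genes lower and 24.3% higher. Their median log2 fold change was -3.07, against 0.00 over all tested genes. Rbfox1 had 1, 0 and 1 reads in the control, clone 1 and clone 2 and was not tested. A fall of at least 4-fold together with a call was seen for 7 neuronal members (Celf3, Celf4, Celf5, Celf6, Elavl2, Elavl3 and Elavl4), against 3.98% of all tested genes. These 7 summed to 428 CPM in the control, 21.4 in clone 1 and 20.5 in clone 2. In a bulk library, fewer cells that carry a transcript and less of it in each cell cannot be told apart.

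**Figure D1:**
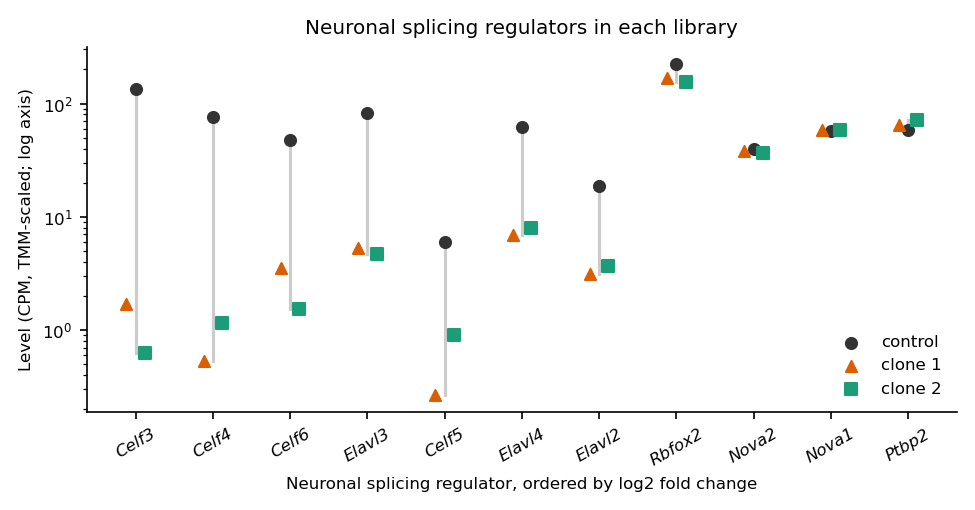
Level of each neuronal regulator in CPM (logarithmic axis) in the control and in clones 1 and 2, 1 point per library. The clone points of Celf3 to Celf6 and Elavl2 to Elavl4 lie far below the control, those of Nova1, Nova2 and Ptbp2 lie beside it, and Rbfox1, at 1 read or fewer in each library, is left out.

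Celf3 (chr3:94478295-94492198, plus strand, GRCm38), a neuronal Celf protein that binds UG-rich RNA, stood at 134 CPM in the control, 1.69 in clone 1 and 0.628 in clone 2 (1615, 19 and 7 reads). Its log2 fold change was -6.84 ± 0.16 (SE), a 114-fold fall with an adjusted p of 1.23e-14. Celf4 (chr18:25477632-25754157, minus strand), a regulator of excitability genes in neurons, stood at 75.9 CPM in the control, 0.534 in clone 1 and 1.17 in clone 2 (913, 6 and 13 reads). Both genes were thus left with a handful of reads in each clone. The log2 fold change of Celf4 was -6.46 ± 0.18 (adjusted p = 9.91e-14). Tested genes on its chromosome had a median of 0.41, and the part of the chromosome was not tested.

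Celf6 (chr9:59577917-59607292, plus strand) stood at 48.0 CPM in the control, 3.56 in clone 1 and 1.53 in clone 2, a log2 fold change of -4.23 ± 0.20 (adjusted p = 7.63e-11). Celf5 (chr10:81459227-81482709, minus strand), the least abundant of the 4, stood at 5.98, 0.267 and 0.898 CPM (72, 3 and 10 reads). Its ratio of control to clones was 10.3, with a 95% counting interval of 5.66 to 20.3 (exact, binomial), and its adjusted p was 2.87e-06. In all 4 neuronal Celf genes both clones lay below the control. With 1 control library this says little by itself, here and for the genes below, since it also held for Nova2, which was not called. The share of all tested genes with both clones on the same side of the control is not given here.

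The neuronal Elavl genes, whose products are the Hu antigens of neurons, had fold changes nearer 1 than those of Celf3 and Celf4. Elavl3 (chr9:22015005-22052023, minus strand) stood at 82.4 CPM in the control, 5.34 in clone 1 and 4.67 in clone 2, a log2 fold change of -4.04 ± 0.12 (adjusted p = 1.52e-13). Elavl4 (chr4:110203722-110351909, minus strand) stood at 62.2, 6.94 and 7.90 CPM, with a log2 fold change of -3.07 ± 0.12 (adjusted p = 6.37e-12). Elavl2 (chr4:91250763-91400785, minus strand) stood at 18.9, 3.11 and 3.68 CPM, with a log2 fold change of -2.47 ± 0.20 (adjusted p = 4.16e-08). The clones of each gene lay close together and below the control, and all 3 kept a readable level in both clones, at 35 reads or more per library.

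The remaining neuronal members moved little. Rbfox2, a broadly expressed Rbfox gene that also acts in muscle and epithelium, stood at 225 CPM in the control, 167 in clone 1 and 154 in clone 2 (log2 fold change -0.49 ± 0.06, adjusted p = 6.16e-06). It lies on chromosome 15, whose tested genes had a median log2 fold change of -0.28, and the part of the chromosome in this fall was not tested. Nova1, which binds clustered short RNA elements and is a classic neuronal splicing factor, stood at 57.7 CPM in the control, 58.9 in clone 1 and 58.8 in clone 2 (log2 fold change 0.03 ± 0.08, adjusted p = 0.781). Nova2, its paralogue in cortex and spinal cord, stood at 40.0, 38.2 and 36.3 CPM (log2 fold change -0.10 ± 0.09, adjusted p = 0.388). It lies on chromosome 7, where the median of tested genes was 0.26.

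Ptbp2, the neuronal paralogue of Ptbp1, stood at 58.3 CPM in the control, 65.1 in clone 1 and 71.1 in clone 2. Its log2 fold change was 0.23 ± 0.08 with an adjusted p of 0.0285, and both clones lay above the control. This call was lost under DESeq2, under limma-voom and without clone 2, where the log2 fold change was 0.16. The neuronal members therefore divided, in these libraries, into 7 genes that fell at least 5.54-fold and 4 tested genes whose clone mean stayed within 1.5-fold of the control.

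The ubiquitous regulators were divided, with more rises than falls and mostly small changes. Of 40 tested, 22 rose, 6 fell and 12 were not called, beside 24.3% of all tested genes higher and 25.8% lower. Their median log2 fold change was 0.17, and the 22 rises ran from 1.11-fold to 1.87-fold. A call together with a rise of at least 1.5-fold was met by 1 ubiquitous member, Hnrnpul1, against 7.82% of all tested genes. Mbnl3, with 0, 1 and 1 reads, was not tested. Summed over the 41 genes, the level was 12521 CPM in the control, 14006 in clone 1 and 14495 in clone 2. The call rests on the close spread of the clones: with a preset variation of 10% between libraries in place of the estimated one, an alternative chosen after seeing the data, 2 of the 22 rises (Hnrnpul1 and Mbnl1) and 8 of the 8 neuronal falls were called. DESeq2 called 13 rises and 2 falls among the ubiquitous members, and with no low-count filter edgeR called no member of either class (lowest adjusted p = 0.0720).

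**Figure D2:**
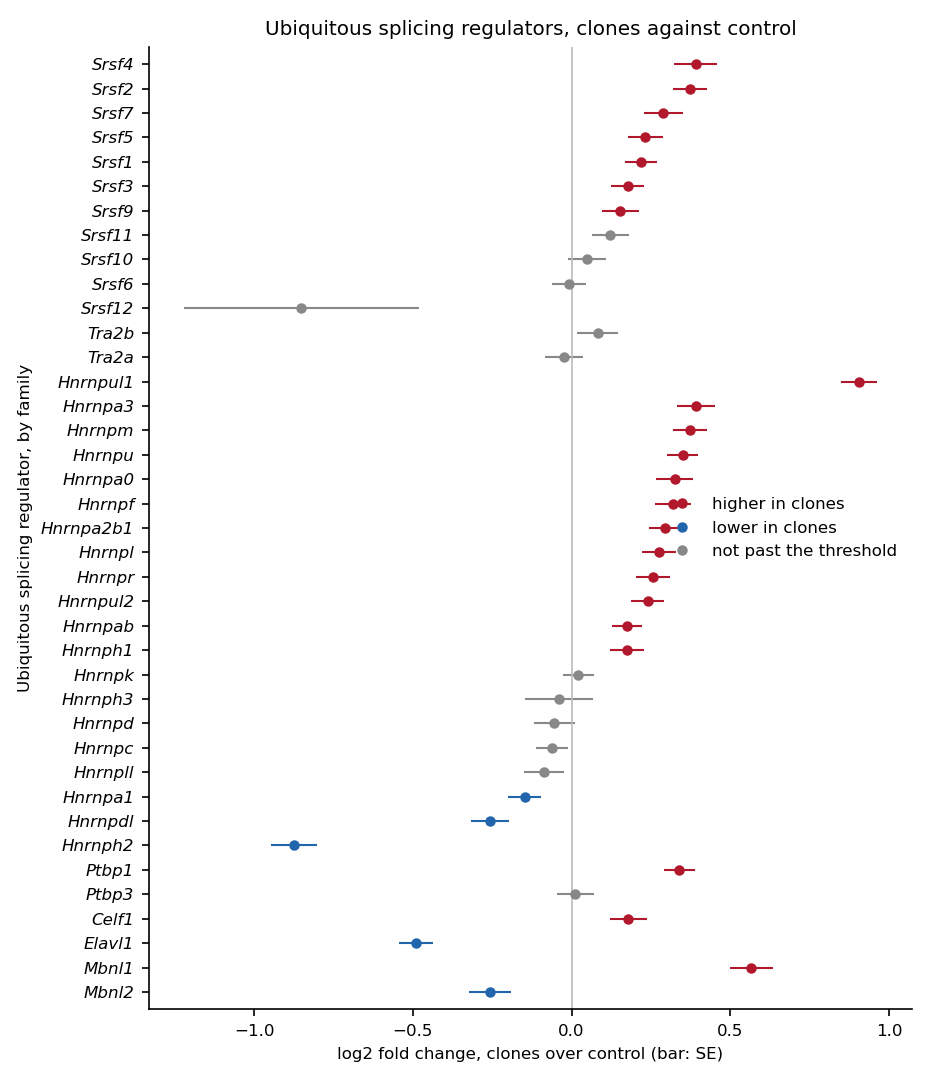
Log2 fold change of clones over control for the ubiquitous regulators, with bars of 1 SE, coloured by call. Most points lie between 0 and 0.4, Hnrnpul1 lies highest at 0.91, and Hnrnph2 at -0.88 is the lowest of those drawn and called. Celf2 and Mbnl3, at 13 reads or fewer in every library, are left out.

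Among the SR genes, 7 of 11 rose, none fell and 4 were not called, beside 24.3% of all tested genes higher and 25.8% lower. Of the 7 rises, DESeq2 called that of Srsf2 but not those of Srsf1, Srsf3, Srsf4, Srsf5, Srsf7 and Srsf9. Srsf4, one of the larger SR proteins, stood at 74.0 CPM in the control, 96.8 in clone 1 and 97.1 in clone 2 (log2 fold change 0.39 ± 0.07, adjusted p = 1.80e-04). Srsf2 (SC35), a marker of nuclear speckles and the SR gene with the highest level per kilobase of exon in the control (109 CPM per kb), stood at 322, 409 and 426 CPM (log2 fold change 0.37 ± 0.05, adjusted p = 2.36e-05). In both genes the clones lay above the control and close together, but the clones of Srsf11, which was not called, also lay above it. Srsf7, which also takes part in mRNA export, had a log2 fold change of 0.29 ± 0.06, Srsf5 of 0.23 ± 0.05 and Srsf1, the founding SR protein, of 0.22 ± 0.05. Srsf3 (0.18 ± 0.05) and Srsf9 (0.15 ± 0.06) also rose, the latter call being lost without clone 2. Srsf3 and Srsf7 lie on chromosome 17, where the median of tested genes was 0.12. The part of the chromosome in their rises was not tested. Srsf6, at 248, 245 and 249 CPM, Srsf10, at 163, 163 and 174 CPM, and Srsf11, at 148, 159 and 163 CPM, were not called. Srsf12, the least abundant SR gene, had 36 reads in the control, 15 in clone 1 and 22 in clone 2, and its log2 fold change of -0.85 ± 0.37 was not called (adjusted p = 0.0679). The SR-like cofactors Tra2a, at 136, 133 and 135 CPM, and Tra2b, at 156, 158 and 173 CPM, were not called.

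Among the hnRNP genes, 12 of 20 rose, 3 fell and 5 were not called, beside 24.3% of all tested genes higher and 25.8% lower. The rises of Hnrnpab and Hnrnph1 and the falls of Hnrnpdl and Hnrnpa1 were not called by DESeq2. Hnrnpul1, an hnRNP U-like protein that also acts in DNA repair, stood at 145 CPM in the control, 272 in clone 1 and 270 in clone 2 (log2 fold change 0.91 ± 0.06, adjusted p = 2.41e-09). It lies on chromosome 7, where the median of tested genes was 0.26, and the part of the chromosome in this rise was not tested. Hnrnpa3, a relative of Hnrnpa2b1, stood at 498, 619 and 687 CPM (log2 fold change 0.39 ± 0.06). Hnrnpm stood at 286, 360 and 380 CPM (0.37 ± 0.05), and Hnrnpu, a nuclear scaffold protein, at 954, 1199 and 1230 CPM (0.35 ± 0.05). Each of these had both clones above the control, but so did Hnrnpk, which was not called. Hnrnpm lies on chromosome 17, where the median of tested genes was 0.12, and the part of the chromosome was not tested.

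Hnrnph2, the X-linked paralogue of Hnrnph1, went against its family: it stood at 96.2 CPM in the control, 51.2 in clone 1 and 53.7 in clone 2 (log2 fold change -0.88 ± 0.07, adjusted p = 6.60e-08). Genes of the X chromosome had a median of -0.22, and the part of the chromosome in this fall was not tested. Its paralogue Hnrnph1 stood at 512, 562 and 594 CPM and rose (0.17 ± 0.05), a call lost without clone 2. Hnrnpdl, an hnRNP D relative, fell (-0.26 ± 0.06, adjusted p = 0.00204), with both clones below the control. Hnrnpa1, a general antagonist of SR proteins at splice sites, lies on chromosome 15, where tested genes had a median of -0.28. It stood at 790, 690 and 736 CPM (-0.15 ± 0.05, adjusted p = 0.0262), and the part of the chromosome was not tested. That call was lost without clone 1. Per kilobase of exon, the highest control levels of the whole set were those of Hnrnpab (353 CPM per kb), Hnrnpa1 (251) and Hnrnpa2b1 (219). Hnrnpab itself was 1.13-fold higher in the clones, a call lost without clone 2.

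The other hnRNP genes that rose did so by less than 1.3-fold. Hnrnpa2b1, a reader of RNA transport signals and the most counted member, stood at 1443 CPM in the control, 1721 in clone 1 and 1815 in clone 2 (0.29 ± 0.05). Hnrnpa0 (0.32 ± 0.06), Hnrnpf (0.32 ± 0.06), Hnrnpl (0.27 ± 0.05), Hnrnpr (0.26 ± 0.05) and Hnrnpul2 (0.24 ± 0.05) completed the list of rises. Hnrnpl lies on chromosome 7, where the median of tested genes was 0.26, close to its own change. The part of the chromosome in that rise was not tested. The 5 hnRNP genes that were not called had log2 fold changes between -0.09 and 0.02. They include Hnrnpc, a U-tract binder, at 433, 411 and 420 CPM, and Hnrnpk, a poly(C)-binding protein, at 798, 821 and 799 CPM, where the control lay above both clones and below both clones, respectively. The other 3 were Hnrnpd, Hnrnph3 and Hnrnpll.

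The ubiquitous paralogues of the neuronal genes gave a measure within each family. Ptbp1, the repressor of neuronal exons outside neurons, stood at 528 CPM in the control, 664 in clone 1 and 672 in clone 2 (log2 fold change 0.34 ± 0.05, adjusted p = 3.03e-05). Ptbp3 was not called, at 149, 152 and 148 CPM. Elavl1 (HuR), the only broadly expressed Hu gene and an mRNA-stabilising protein, fell as its neuronal paralogues did but by far less: it stood at 250, 178 and 177 CPM (-0.49 ± 0.05, adjusted p = 1.63e-06). Celf1 (CUGBP1), the broadly expressed Celf gene, stood at 146, 166 and 165 CPM (0.18 ± 0.06, adjusted p = 0.0180), the direction opposite to Celf3 to Celf6, a call that DESeq2 did not make.

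Celf2 had 13 reads in the control, 0 in clone 1 and 2 in clone 2 and passed the low-count filter only through the control, so its fall, although among the 6, supports nothing here. The ratio of control to clones was 12.1, with a 95% counting interval of 2.74 to 110. Mbnl1, a Muscleblind protein that opposes Celf1 on many exons, stood at 120 CPM in the control, 169 in clone 1 and 187 in clone 2 (0.57 ± 0.07, adjusted p = 4.30e-06). Its paralogue Mbnl2 stood at 100, 84.6 and 83.1 CPM (-0.26 ± 0.07, adjusted p = 0.00408). The fall of Mbnl2 was not called by DESeq2.

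Shares per kilobase of exon show the balance within each family. The neuronal genes made up 73.2% of the summed Celf level in the control, 6.61% in clone 1 and 3.97% in clone 2 (clones 5.29% ± 1.87, SD, n = 2). They made up 51.7% of the Elavl level in the control, 12.4% in clone 1 and 13.1% in clone 2. Ptbp2 stayed at 5.40% of the summed Ptbp1 and Ptbp2 level in the control, 4.82% in clone 1 and 5.18% in clone 2. The balance moved towards the ubiquitous genes in the Celf and Elavl families and stayed within a percentage point in the Ptbp pair. Lengths are those of all annotated exons, so the share of a gene with many unused exons is understated. From raw counts, without a length, the clone means were 3.00% for Celf, 8.18% for Elavl and 9.25% for Ptbp2, against 64.2%, 39.6% and 9.94% in the control.

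**Figure D3:**
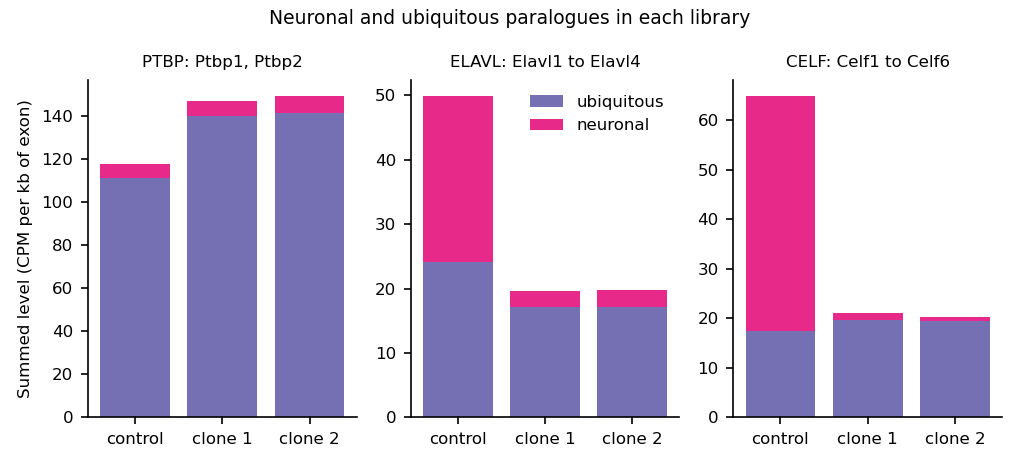
Summed level per kilobase of exon of neuronal and ubiquitous members in each library, stacked in 1 bar per library (CPM per kb, from 0). The panels cover the Celf family, the Elavl family, and Ptbp1 with Ptbp2, Ptbp3 being left out. The neuronal segments of Celf and Elavl are small in both clones, and the ubiquitous segments change less.

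Counts of some members differed between the clones. Among neuronal members with reads, the ratio of clone 1 to clone 2 had a 95% counting interval that excluded 1 for Celf3 (2.69, 1.08 to 7.57), Celf6 (2.33, 1.29 to 4.39) and Rbfox2 (1.09). Celf4 and Celf5 had ratios below 1 with intervals that included it. Among the 39 ubiquitous members, 14 intervals excluded 1, all with ratios below 1 and between 0.901 and 0.975. These intervals cover counting error only, and with 1 library per clone no difference between clones was tested. They were not corrected for the number of genes, and the share over all genes was not computed. Whether library scaling has a part in the 14 was not tested. Each clone had at most 19 reads of Celf3 and 13 of Celf4, against 1615 and 913 in the control.

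Another list of 66 splicing regulators, of which 64 were in the table and 59 were tested, gave 28 higher and 4 lower, beside 24.3% and 25.8% of all tested genes. The 4 that fell include Srrm4 and Srrm3, activators of neuronal microexons: Srrm4 had 612 reads in the control, 14 in clone 1 and 9 in clone 2 (log2 fold change -5.61 ± 0.19, adjusted p = 1.05e-12). Srrm3 stood at 29.9, 0.801 and 0.808 CPM (-5.20 ± 0.23, adjusted p = 3.27e-11). Khdrbs3, a STAR protein of brain and other tissues, and Msi2, a Musashi protein, fell by 0.72 and 0.31 on the log2 scale. The largest rises were Scaf1 (0.87), Qk (0.61), Rbm10 (0.54) and Srrm2 (0.53). That list includes SR protein kinases and nuclear importins, of which 10 were tested, 4 rose (Clk2, Prpf4b, Tnpo1 and Tnpo2) and none fell. Of all these genes called lower, Srrm4 and Srrm3 were those that fell by more than 4-fold.

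**Figure D4:**
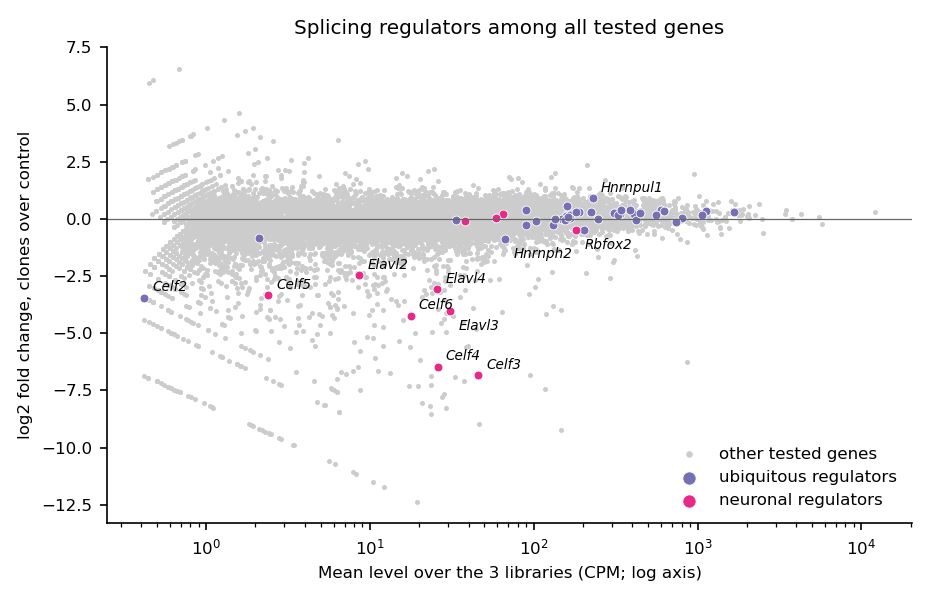
Log2 fold change against mean level for all 13705 tested genes, with neuronal and ubiquitous members marked. The 7 neuronal Celf and Elavl genes lie far below the cloud's centre and most ubiquitous ones near 0, apart from Celf2 at -3.44, which rests on 13, 0 and 2 reads.

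Other neuronal genes moved in the same direction. The summed level of 5 neuron markers (Tubb3, Map2, Snap25, Nefl and Stmn2) was 1091 CPM in the control, 275 in clone 1 and 265 in clone 2. All 4 tested were lower, beside 25.8% of all tested genes, the share that applies to each count of markers here. The motor neuron markers summed to 16.04 CPM in the control, 2.40 in clone 1 and 1.89 in clone 2. Of these, Slc18a3, the vesicular acetylcholine transporter, had 113, 3 and 1 reads and Isl1 had 72, 23 and 17, and both fell. Chat, the acetylcholine-synthesising enzyme, had 7, 0 and 0 reads and Mnx1 had 1, 1 and 3, so these defining markers were at or near 0 in every library. Slc5a7 was not analysed here. Sympathetic neuroblast markers summed to 1146, 822 and 744 CPM, with 5 of 6 lower. Microglia markers summed to under 1 CPM in each library, and fibroblast markers to 73.6, 67.2 and 84.1 CPM, with 1 of 4 tested lower. Markers of other cell types also fell: endothelial markers summed to 31.7, 15.4 and 17.1 CPM with 2 of 2 tested lower (Kdr and Pecam1), and astrocyte markers to 16.9, 7.38 and 7.90 CPM with 1 of 2 lower (Slc1a2). Oligodendrocyte markers summed to 6.81, 4.80 and 3.59 CPM and epithelial markers to 2.49, 2.76 and 4.85 CPM, with none called. Few genes were tested for each of these other cell types, so their counts say little beside that 25.8%. The part of a wider shift in neuronal transcripts or in these other markers in the falls of the members was not tested.

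The authors' deposited table gave 8 neuronal members lower and none higher of 12, beside 6.74% of all its genes lower and 6.91% higher, and 13 ubiquitous members higher and 2 lower of 41. These shares count all 20156 of its genes, also those without an adjusted p, among them Rbfox1, Celf2 and Mbnl3. Reads from overlapping genes could matter for some members, because how the counting treated strand is unknown. Exons of genes on the opposite strand cover 1532 bases of Srsf4 (43.0% of its exons) and 2652 bases of Nova2 (31.7%). They also cover 29.1% of Hnrnpab, 26.45% of Hnrnpf, 25.3% of Srsf2 and 983 bases of Ptbp1 (20.7%). Among the neuronal falls they cover 543 bases of Celf5 (8.14%) and 74 bases of Celf3. They cover none of Celf4, Celf6, Elavl2, Elavl3, Elavl4 and Rbfox2. Genes on the same strand cover 1169 bases of Hnrnpm (14.7%) and 256 bases of Elavl3 (3.72%). Near-identical processed copies were found for 14 members with 68 matches, 35 of them for Hnrnpa3 and 9 for Hnrnpa1, whose values are uncertain to that extent.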

How the data were processed

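Poly(A) RNA from 1 untreated and 2 resistant NSC-34 libraries was sequenced from a TruSeq Stranded mRNA kit, with RIN above 9 per the labels' protocols. The deposited whole-number counts per gene came from STAR 2.5 in gene-count mode with Gencode M16 (Ensembl 91), per the file headers, and the submitters' processing notes name STAR 2.5.3, bcl2fastq, DESeq2 and GRCm38 (mm10). The strand setting was not given in the sources used here. The deposited RPM values matched the counts in all 22976 genes within a rounding of 0.05 and served only for that check. The authors' deposited DESeq2 table gave fold ratios, log2 fold changes and p-values, used only for the counts named.

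Counts were fitted with edgeR 4.0.16 (R 4.3.3): TMM scaling, filterByExpr on the groups, the quasi-likelihood F test (two-sided) and Benjamini-Hochberg adjustment over 13705 genes at 0.05. The SE is the log2 fold change divided by the square root of F, and 1 residual degree of freedom, from the clones, is moderated across genes. Levels per kilobase use the Gencode M21 exon union. Intervals for ratios of counts are exact at 95% and cover counting error only, and 3 reads correspond to 0.256, 0.263 and 0.265 CPM in the control, clone 1 and clone 2. On simulated data the fit recovered 36% of 1.25-fold, 72% of 1.5-fold, 92% of 2-fold and 100% of 4-fold changes (50 genes each). It made 9 false calls among the other genes. How far real controls would differ from each other is unknown, so these figures do not measure how many real calls are false. Promoters came from RefSeq. Processed copies were searched with BLAST 2.17.0 at a minimum identity of 95%. The members and lists were chosen with earlier results of these data known. All neuronal members were named, and of each ubiquitous family up to 5 called members with the largest change, the most abundant one and those against the majority; other names were picked with values known. The alternatives run were DESeq2 1.42.0, limma-voom (limma 3.58.1), other scaling, filters, prior counts, fits and leaving out each clone; preset variations of 10% and 20%, the unfiltered legacy fit and the set without members on chromosomes 7, 15, 18 and X were chosen after seeing the data.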

Additional observations from a re-analysis of the deposited data

How the results depend on the processing

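The 8 neuronal falls were called under every alternative run except the unfiltered fits, where 0 were called, and the 20% preset variation, which called 7; leaving out chromosomes 7, 15, 18 and X left 6 of them in the set. Over all genes, the numbers higher and lower were 1402 and 1369 with DESeq2, 1436 and 2181 with a preset variation of 10%, and 156 and 992 with 20%. With no low-count filter, 0 genes were higher and 4 lower, and with the legacy fit 0 and 0; at an unadjusted p under 0.05 the counts were 3670 and 3416, and 3289 and 3271. Under both unfiltered fits, 0 neuronal, ubiquitous and other regulators were called in either direction, with lowest adjusted p of 0.0720 and 0.0589 (edgeR); unadjusted, 8 neuronal members were lower and 0 higher in each, and 22 ubiquitous members were higher, with 5 and 4 lower. The 1 neuronal rise, Ptbp2, became 0 with DESeq2, limma-voom, both unfiltered fits and both preset variations, and ranged from 0 to 1 when a clone was left out; limma-voom gave 1 at an unadjusted p under 0.05 and DESeq2 0. Ubiquitous rises numbered 13 with DESeq2, 2 with 10% and 0 with 20% (1 unadjusted), and falls 2, 3 and 1. Other regulators numbered 17, 7 and 0 higher (1 unadjusted at 20%) and 2 lower with DESeq2 and with 20%. The median neuronal log2 fold change was -2.66 with a prior count of 5 and between -3.16 and -2.72 without a clone; the ubiquitous median lay between 0.15 and 0.18. Without clone 1, 4 uncalled genes changed sign: Hnrnpd from -0.05 to 0.0142 (without clone 2, -0.126), Hnrnph3 from -0.04 to 0.0578 (-0.141), Ptbp3 from 0.01 to -0.0072 (0.0312) and Srsf6 from -0.01 to 0.00198 (-0.0191), the last also in both unfiltered fits (0.0016). Raw counts in place of levels per kilobase moved the neuronal shares in the clones from 5.00% to 9.25% for Ptbp2, from 12.8% to 8.18% for Elavl and from 5.29% to 3.00% for Celf. Srsf12 was called without clone 2 and with a mean of at least 1 CPM. Leaving out the control was not possible, since it is the only one, and leave-out fits used the dispersions of both clones. Depth limits Celf5, Celf2 and Srsf12. The cause of these changes was not tested.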
